A study of Mus musculus with 12 samples.

Results

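Epidermal-type keratins, desmoplakin and loricrin were followed in mouse nasal tissue through 6 rows of a gene count table. Of the 55487 rows in the table, these 6 were taken by name: Gm44323, which lies opposite the basal keratin gene Krt5, Gm49428 and Gm44342, which both lie opposite Krt6a, Gm11940, opposite Krt10, Gm10129, opposite the desmoplakin gene Dsp, and the own row of the loricrin gene Lor. They were selected on their measured values, the counts in these 12 libraries and the differences between groups made from them. Those differences are therefore given as a description. Calls of these rows below, and calls kept, lost or gained between fits, rest on the same values. Such calls describe how each fit treats the rows and are not a test of them. All 6 passed the filter on low counts that left 13181 rows.

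The libraries came from C57BL/6 males of 6 weeks and fall into 3 groups of 4: KDP20 at day 10, KDP20 at day 5 and a PBS vehicle labelled day 10. The series title names diesel particles as the exposure and nasal inflammatory dysfunction as the outcome. The labels give nasal as the tissue and nasal epithelium as the cell type, and RNA was extracted as total RNA. Vehicle at day 5 was not analysed here, so exposure and day of collection differ together wherever day 5 is set against vehicle. Whether each library is a different animal is not in the labels, and p-values then measure only the spread between these samples, which may be technical.

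In a stratified epithelium, basal cells on the basement membrane are held together by filaments of KRT5 and its partner KRT14. Cells that leave the basal layer switch to KRT1 and KRT10, and at the surface loricrin is cross-linked into the cornified envelope that makes the epithelium a barrier. Desmoplakin ties the keratin filaments to desmosomes, the junctions between the cells, and KRT6A and KRT6B come on in wounded or stressed epithelium. In the nose, basal cells with KRT5 underlie the respiratory and olfactory epithelium, while cornified epithelium lines the vestibule behind the nostril.

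Both short rows, Gm44323 and Gm44342, are annotated as miRNA genes of 129 bases that lie wholly inside a coding exon of a keratin, on its other strand. On GRCm38, Gm44323 is at chr15:101710274-101710402 on the plus strand, within exon 5 of the 9 exons of Krt5 (chr15:101707070-101712898, minus strand). Gm44342 is at chr15:101692211-101692339 on the plus strand, within exon 5 of the 9 exons of Krt6a (chr15:101689910-101694307, minus strand). Their sequences are shown because they set how far reads of one keratin can be told from those of another, and capitals mark the bases at which both differ.
Gm44323: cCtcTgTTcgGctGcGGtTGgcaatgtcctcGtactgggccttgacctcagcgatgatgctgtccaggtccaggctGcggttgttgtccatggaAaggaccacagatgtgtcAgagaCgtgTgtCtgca
Gm44342: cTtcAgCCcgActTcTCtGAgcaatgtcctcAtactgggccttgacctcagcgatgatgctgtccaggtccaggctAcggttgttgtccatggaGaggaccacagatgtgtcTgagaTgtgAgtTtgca
The sequences share 112 of 129 bases (86.8%) and differ at 17. Another row, Gm44383, lies at chr15:101678032-101678160 in exon 5 of Krt6b and is identical to Gm44342 at all 129 bases. A read that lies wholly in this stretch cannot be assigned to Krt6a or to Krt6b, so the split of counts between Gm44342 and Gm44383 is uncertain.

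The other 3 opposite rows only partly overlap the gene they face. Gm49428 (chr15:101690309-101691941, plus strand, annotated as antisense) has 2 exons of 765 bases together, of which 471 lie over exons 6, 8 and 9 of Krt6a, 310 of them coding, and 294 lie over no Krt6a exon. Gm11940 (chr11:99387340-99387897, plus strand, antisense) has 417 bases, of which 146 lie over exons 3 and 4 of the 8 exons of Krt10 (chr11:99385254-99389364, minus strand) and 271 over none. Gm10129 (chr13:38150477-38151792, minus strand, annotated as a transcript that awaits experimental evidence) has 1316 bases, of which 499 lie over exon 1 of Dsp (chr13:38151294-38198577, plus strand), 204 of them coding, and 817 lie in no exon of Dsp. Lor (chr3:92080271-92083142, minus strand, protein coding) has no gene opposite.

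**Figure D1:**
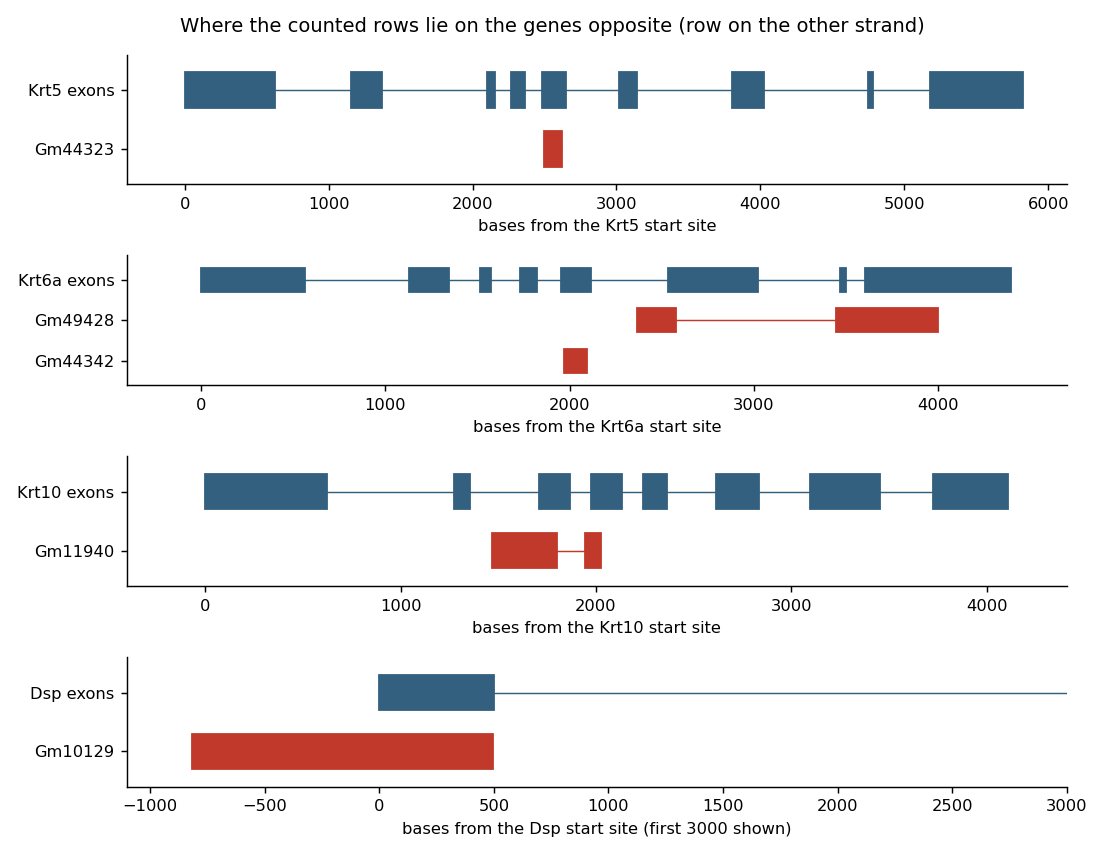
Exons of Krt5, Krt6a, Krt10 and Dsp, merged over their transcripts, and the 5 rows opposite them, in bases from each gene's start site in its direction of transcription. Gm44323 and Gm44342, of 129 bases each, sit inside 1 exon, while Gm10129 reaches upstream of the Dsp start site and has 817 bases in no Dsp exon.

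Counts lay mostly on the opposite rows for Krt5, Krt6a and Dsp, and on the own row for Krt10. Over the 12 libraries Gm44323 held 13281 counts, against 133 in the own row of Krt5, although its 129 bases are 5.87% of the 2197 exonic bases of that gene. Gm49428 held 3911 counts and Gm44342 held 418, against 4 in the own row of Krt6a. Gm10129 held 4662 counts, against 319 in the own row of Dsp. Gm11940 held 235 counts, against 2345 in the own row of Krt10, which thus had 9.98 times the counts, not divided by length. The strand setting of the counting is not given in the sources used here, so reads from a keratin or desmoplakin mRNA and reads from a transcript on its other strand cannot be told apart in these rows. The same limit holds for every own row given here, and Lor has no row opposite it to set beside its own. In bulk tissue, fewer cells of a type and less RNA per cell cannot be told apart either.

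Depth ran from 1658420 to 3227138 counts per library, and 3 counts, taken as the floor of detection, were worth 0.93 to 1.81 CPM, the count scaled to a fixed library total. Values below are CPM of the library size after scaling by trimmed mean of M-values, and errors are SD over 4 libraries. The row CT010467.2 took 11.2% of counts in day 10 replicate 1 and 17.9% to 25.5% in day 10 replicates 2, 3 and 5, against 9.69% to 12.6% at day 5 and 7.25% to 10.1% in vehicle. Day 10 values are therefore given below also with replicate 1 as the sole day 10 library. A fit with that share as covariate called 0 of all rows for day 10 against vehicle and 2 for day 10 against day 5. A call lost in either fit is therefore not particular to a row. Of 15 hair keratin genes, listed as a sign of haired skin, 0 had enough counts in their own rows to be tested. Their summed level was 1.71 to 5.49 CPM at day 10, 1.51 to 4.204 at day 5 and 0.83 to 2.52 in vehicle. The own rows of Krt5 and Krt6a also held few counts, so low own rows cannot decide whether haired skin was present. The labelled epithelium showed 10 of 15 simple epithelial genes by tested own rows, among them Epcam, an adhesion protein of epithelial cells, with 28 to 70 counts per library. The own row of Krt20, a keratin of gut and urinary epithelium, had at most 1 count in any library, with the same limit.

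Gm44323, the row inside the basal keratin Krt5, was the most abundant of the 6, also per length. In day 10 replicates 1, 2, 3 and 5 it had 595, 479, 379.8 and 456 CPM. Day 5 replicates 5, 6, 7 and 8 had 591, 1085, 395 and 775 CPM, and vehicle replicates 2, 4, 5 and 6 had 304, 534.5, 325 and 319 CPM. The 3 groups overlapped, day 5 replicates 6 and 8 were the highest of all 12 libraries, and vehicle replicate 4 stood above the other vehicle libraries. Means were 478 ± 89.2 CPM at day 10, 712 ± 293 at day 5 and 371 ± 109.5 in vehicle. On the log2 scale the difference was 0.94 (SE 0.22) for day 5 against vehicle, 0.36 (SE 0.22) for day 10 against vehicle and -0.57 (SE 0.22) for day 10 against day 5. With replicate 1 as the sole day 10 library, the last 2 were 0.68 and -0.26. The own row of Krt5 had 3 to 25 counts per library, with log2 differences of -0.22 (SE 0.56) at day 10 and 0.01 (SE 0.54) at day 5, both against vehicle.

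The difference of Gm44323 at day 5 passed the threshold of the fit over all rows, an edgeR adjusted p under 0.05, but several single libraries decided that call. It was lost without any 1 of day 5 replicates 5, 6 or 8, with log2 differences of 1.02, 0.66 and 0.90. It was lost without vehicle replicates 2, 5 or 6, with 0.86, 0.89 and 0.87, and without day 10 replicates 3 or 5, with 0.94 in both cases. Without vehicle replicate 4 it was 1.18 and kept the call. Between day 10 and day 5, a call was gained without day 5 replicate 7, at -0.78, and without day 10 replicate 1, at -0.70. For day 10 against vehicle, a call was gained in a fit with a block for the replicate number, at 0.68. That block absorbs each library whose number occurs in no other group. These are day 10 replicates 1 and 3, day 5 replicates 7 and 8 and vehicle replicate 4. They do not bear on the differences of that fit.

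The stress keratin Krt6a was read by Gm49428, which had 252, 74.2, 35.2 and 14.9 CPM in day 10 replicates 1, 2, 3 and 5. It had 163, 407, 145 and 315 CPM in day 5 replicates 5, 6, 7 and 8, against 126, 167, 51.8 and 28.5 CPM in vehicle replicates 2, 4, 5 and 6. All 4 day 5 libraries were above the highest-but-one library of each other group, and day 10 replicate 1 stood far above the rest of its group. Within day 10 the highest library was 17.0 times the lowest, against 2.80 times at day 5 and 5.84 times in vehicle. Means were 94.05 ± 108 CPM at day 10, 257.5 ± 125 at day 5 and 93.3 ± 64.25 in vehicle.

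Gm44342, the short row in exon 5 of Krt6a, had 22.6, 9.61, 6.28 and 0.571 CPM at day 10 in the same replicate order. At day 5 it had 17.8, 40.9, 14.0 and 37.3 CPM, and in vehicle 12.5, 18.2, 8.12 and 3.17 CPM. Its libraries ranked much as those of Gm49428 did, with Pearson r 0.973 between the rows over the 12 libraries and 0.958 within groups. In the 11 libraries other than day 10 replicate 5, Gm49428 held 5.6 to 11.1 times the counts of Gm44342, although its exons are only partly over Krt6a. In day 10 replicate 5 the rows held 26 and 1 counts, a ratio that rests on a single count.

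In the edgeR fit of all 12 libraries neither Krt6a row was called in any comparison. Gm49428 had log2 differences of 0.01 (SE 0.53) for day 10 against vehicle, 1.44 (SE 0.52) for day 5 against vehicle and -1.43 (SE 0.53) for day 10 against day 5. For Gm44342 these were -0.12 (SE 0.54), 1.33 (SE 0.49) and -1.45 (SE 0.52). Other fits did make calls: limma-voom called Gm49428 for day 10 against day 5, at -2.01. A fit with a block for the replicate number, which absorbs the libraries named above, called Gm49428 for day 5 against vehicle, at 2.77. For day 10 against day 5, 4 of 23 alternatives called Gm49428 and 3 called Gm44342, not all of them named here. Both rows passed for day 5 against vehicle in the fit to only the 8 libraries compared, at 1.43 for Gm49428 and 1.32 for Gm44342, and with the share of CT010467.2 as covariate, at 1.97 and 1.74. With no filter on low counts, both rows passed for day 5 against vehicle and for day 10 against day 5. Day 10 replicate 1 decided the values at day 10: without it, Gm49428 was at -1.23 against vehicle and -2.67 against day 5, where it then passed the threshold, as did Gm44342 at -2.36. Without that replicate Gm49428 also passed for day 5 against vehicle, at 1.44. With that replicate as the sole day 10 library, Gm49428 was at 1.41 against vehicle and -0.03 against day 5, and Gm44342 at 1.05 and -0.27. In that fit both rows passed for day 5 against vehicle, at 1.43 and 1.32. The spread of Gm49428 within groups, an SD of 1.26 on the log2 CPM scale, was larger than that of 99.8% of 1272 rows of like level, whose median was 0.213. Gm44342 had an SD of 1.19 and Gm11940 one of 1.16.

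Rows opposite skeletal muscle genes were high in several of the libraries in which the Krt6a rows were high. The 6 rows opposite 12 listed muscle genes, among them rows opposite Ckm, the muscle creatine kinase, and Ttn, the giant sarcomere protein titin, summed to 1311 CPM in day 10 replicate 1 and to 45.8 to 58.3 CPM in the other day 10 libraries. They summed to 1361 and 2115 CPM in day 5 replicates 6 and 8 and to 40.8 and 29.0 CPM in replicates 5 and 7, against 239 CPM in vehicle replicate 4 and 25.7 to 65.7 CPM in the other vehicle libraries. The own rows of the 12 genes summed to 394 to 572 CPM at day 10, 329 to 461 at day 5 and 400.0 to 424 in vehicle. Of those own rows 0 were at 0 in all libraries, but only 4 had counts in all 12, and that of Acta1, the skeletal actin, had 0 to 11 counts per library. The part of muscle RNA in the keratin values was not tested.

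**Figure D2:**
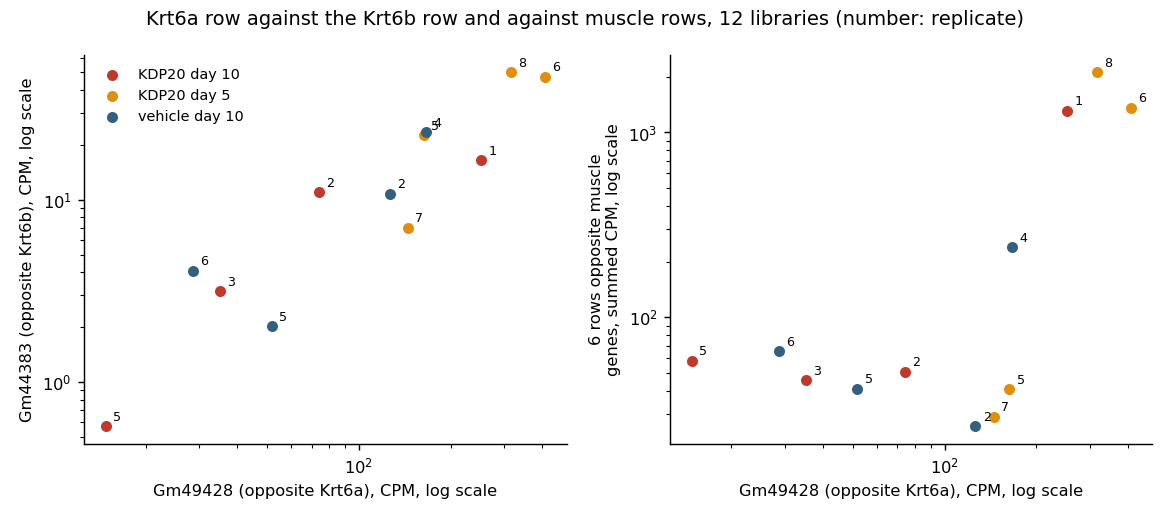
CPM of Gm49428, opposite Krt6a, against Gm44383, opposite Krt6b (left), and against the sum of 6 rows opposite muscle genes (right), on log scales, with 1 point per library and the replicate number beside it. Gm44383 goes with Gm49428 over the whole range, while the muscle sum is 1311 to 2115 CPM in day 10 replicate 1 and day 5 replicates 6 and 8, 239 CPM in vehicle replicate 4 and at most 65.7 CPM elsewhere.

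The suprabasal keratin Krt10 gave different readings from its pair of rows. Gm11940, opposite Krt10, had 7, 0, 2 and 0 counts in day 10 replicates 1, 2, 3 and 5. It had 27, 53, 13 and 53 counts in day 5 replicates 5, 6, 7 and 8, against 33, 39, 2 and 6 counts in vehicle replicates 2, 4, 5 and 6. Every day 10 library was below every day 5 library, while day 10 and vehicle overlapped. The sums were 9 counts of 7320052 at day 10, 146 of 8787407 at day 5 and 80 of 9518080 in vehicle, so the summed share at day 10 was 0.074 times that at day 5 and 0.146 times that in vehicle. Day 10 replicates 2, 3 and 5 were at or under the floor of 3 counts.

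In the fit, Gm11940 differed by -3.67 (SE 0.75) on the log2 scale for day 10 against day 5, by -2.44 (SE 0.80) for day 10 against vehicle and by 1.23 (SE 0.56) for day 5 against vehicle. The first passed the threshold in the full fit and without each of the 12 libraries, at -5.20 to -3.26, with the largest difference without day 10 replicate 1. With day 10 replicate 1 as the sole day 10 library it was -2.25, and with the share of CT010467.2 as covariate it was -2.21 and did not pass. Against vehicle the same fits gave -1.03 and -0.02. For day 10 against vehicle, a call was gained without day 10 replicate 1, at -3.97, and without vehicle replicate 5, at -2.75. It was also gained with no filter on low counts, at -2.43, and with a block for the replicate number, at -6.85. With that block the day 10 value rests on replicates 2 and 5, both at 0 counts. For day 5 against vehicle, a call was gained with that block, at 3.26, and with the share of CT010467.2 as covariate, at 2.19. Gm11940 was chosen with these values known, so its calls, kept or gained, are a description and not a test.

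The own row of Krt10 overlapped between all 3 groups. It had 92.6, 100.2, 91.6 and 73.1 CPM at day 10, 92.2, 104, 95.8 and 85.7 at day 5, and 81.8, 97.6, 99.98 and 87.9 in vehicle. The log2 differences were -0.04 (SE 0.14) for day 10 against vehicle, 0.04 (SE 0.14) for day 5 against vehicle and -0.08 (SE 0.14) for day 10 against day 5, and none was called.

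Gm10129, which overlaps the first exon of desmoplakin, was the steadiest of the 6 rows. It had 179, 185, 160.1 and 200.5 CPM in day 10 replicates 1, 2, 3 and 5. Day 5 replicates 5, 6, 7 and 8 had 234, 255, 204 and 209 CPM, against 158, 124, 179 and 150.8 CPM in vehicle replicates 2, 4, 5 and 6. Every day 5 library was above every day 10 and every vehicle library, and day 10 overlapped vehicle. Means were 181 ± 16.7 CPM at day 10, 225 ± 23.6 at day 5 and 153 ± 22.9 in vehicle, and its SD within groups, 0.172 on the log2 CPM scale, exceeded that of 38.6% of 779 rows of like level.

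The log2 difference of Gm10129 was 0.56 (SE 0.13) for day 5 against vehicle, 0.25 (SE 0.14) for day 10 against vehicle and -0.32 (SE 0.14) for day 10 against day 5. The first passed the threshold, and lost it without any of the 4 day 5 libraries (0.50 to 0.61), without vehicle replicates 2, 4 or 6 (0.59, 0.48 and 0.56) or without day 10 replicates 3 or 5 (0.57 in both cases). It was also lost with a block for the replicate number, at 0.57. The own row of Dsp had 9 to 51 counts per library, with log2 differences of 0.39 (SE 0.39) at day 5 and 0.58 (SE 0.40) at day 10 against vehicle, neither called. With replicate 1 as the sole day 10 library, the day 10 difference of Gm10129 was 0.24 against vehicle and -0.33 against day 5.

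The own row of loricrin, with the limit on strand given above, was the member that was highest at day 10. Lor had 58.1, 112, 95.4 and 109.7 CPM in day 10 replicates 1, 2, 3 and 5. It had 52.2, 45.7, 57.5 and 61.0 CPM in day 5 replicates 5, 6, 7 and 8, against 29.1, 32.4, 66.0 and 45.3 CPM in vehicle replicates 2, 4, 5 and 6. Day 10 replicates 2, 3 and 5 were above all other libraries, and replicate 1 lay within the range of day 5 and of vehicle. Means were 93.8 ± 24.9 CPM at day 10, 54.1 ± 6.65 at day 5 and 43.2 ± 16.7 in vehicle, from 70 to 192 counts per library.

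For Lor the log2 difference was 1.13 (SE 0.23) for day 10 against vehicle, 0.79 (SE 0.22) for day 10 against day 5 and 0.34 (SE 0.23) for day 5 against vehicle. Since Lor was chosen with these values known, its calls are a description and not a test. The difference from vehicle at day 10 passed the threshold in the full fit and without each of the 12 libraries, at 0.99 to 1.41. With replicate 1 as the sole day 10 library it was 0.45. In the fit with the share of CT010467.2 as covariate it was 0.34 and did not pass, where 0 of all rows passed. The difference from day 5 passed in the full fit but not without day 10 replicates 2, 3 or 5 (0.70, 0.78 and 0.70) or without day 5 replicates 5, 6 or 7 (0.77, 0.72 and 0.82). It was 0.11 with replicate 1 as the sole day 10 library and 0.13 with the covariate, where it did not pass.

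**Figure D3:**
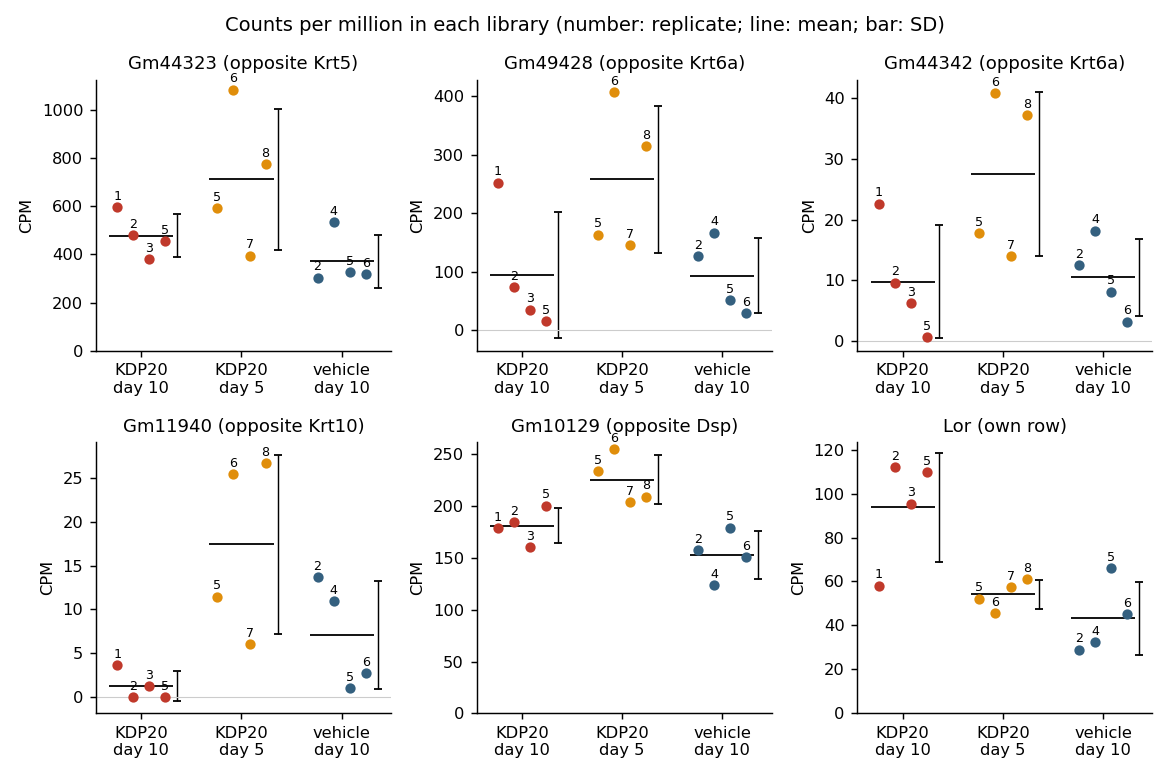
CPM of each of the 6 rows in 12 libraries, with the replicate number above each point, the group mean as a line and the SD as a bar. The 5 rows opposite a gene have their highest mean at day 5, such as 712 CPM for Gm44323, while Lor has its highest mean at day 10, 93.8 CPM.

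**Figure D4:**
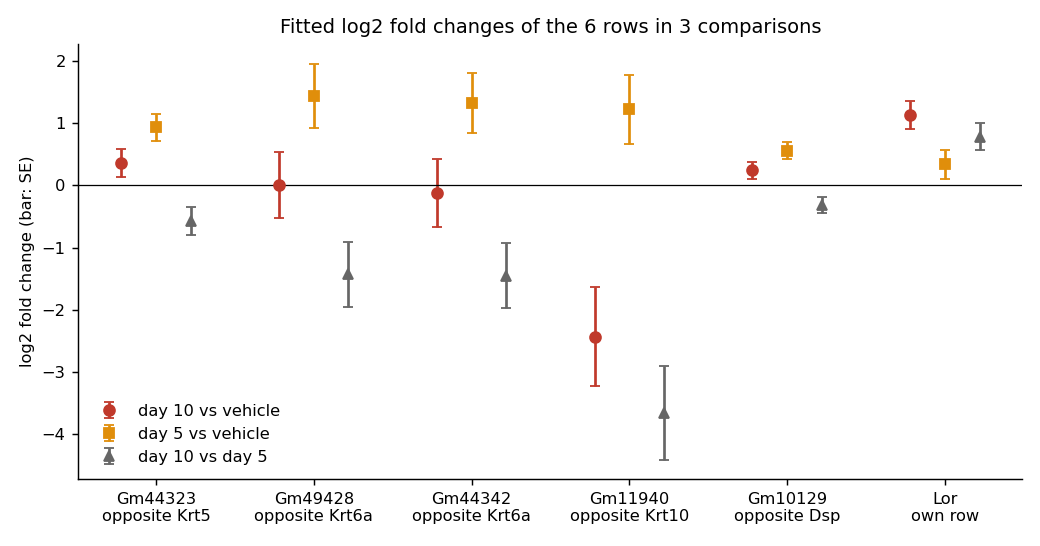
Fitted log2 differences of the 6 rows in 3 comparisons, with SE bars. Day 10 against vehicle runs from -2.44 for Gm11940 to 1.13 for Lor, and day 5 against vehicle is above 0 for all 6.

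Counted over the 6 rows, 1 was called for day 10 against vehicle (Lor, higher), where 7.08% of the 13181 tested rows were called, 3.93% higher and 3.15% lower. For day 5 against vehicle 2 were called (Gm44323 and Gm10129, higher), where 0.66% of rows were called, 0.41% higher and 0.25% lower. For day 10 against day 5 there were 2 calls, Lor higher and Gm11940 lower, where 10.1% of rows were called, 4.66% higher and 5.49% lower. Groups did not overlap for 0 of 6 rows in day 10 against vehicle (9.98% of all rows), for Gm10129 alone, higher, in day 5 against vehicle (11.7% of all rows, 5.86% higher), and for Gm11940 and Gm10129, both lower, in day 10 against day 5 (12.5% of all rows, 6.76% lower). Since the rows were chosen with these values known, their counts carry no weight beside those shares. Each pair of comparisons has 1 group of libraries in common, so they are not independent.

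The day 5 values of the 5 opposite rows stand beside a shift of opposite rows as a class. Over the 3981 tested rows that lie opposite a gene, the median log2 difference for day 5 against vehicle was 0.17, against -0.12 over the other tested rows and -0.03 over all. For day 10 against vehicle these medians were 0.08, -0.06 and -0.01. The part of this shift in the values of Gm44323, Gm49428, Gm44342, Gm11940 and Gm10129 was not tested.

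At day 10, the size of a difference also went with GC content over all tested rows. With the rows split into 10 bins of GC content, the lowest bin, up to 41.7%, had a median log2 difference from vehicle of -0.42, and the highest, from 58.1% to 83.1%, one of 0.31. Lor has a GC content of 68.3%, higher than 99.6% of tested rows, and 1.98% of the rows in the highest bin reached its difference. Gm11940 has 39.8%, with 5.02% of tested rows lower. The other 4 members lie between 53.5% and 59.7%. After a correction of each library for GC content, the day 10 difference of Lor from vehicle was 0.70 and kept its call, that from day 5 was 0.52 and lost it, and Gm11940 was at -3.42 for day 10 against day 5 and kept its call. The correction took Gm44323 to -0.75 and Gm10129 to -0.54 for day 10 against day 5, and both then passed the threshold, while the day 10 difference of Gm10129 from vehicle became 0.00 and its call at day 5 was lost at 0.53.

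**Figure D5:**
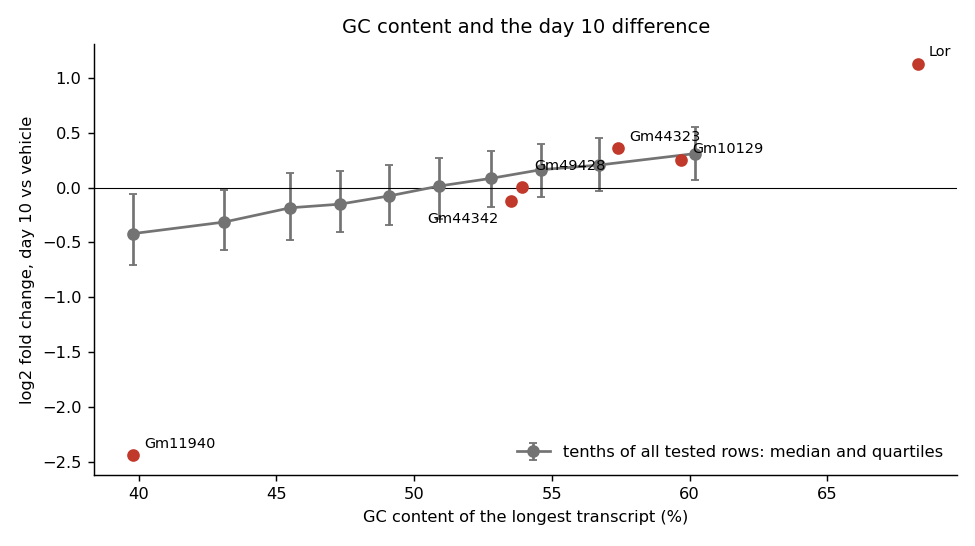
Log2 difference of day 10 against vehicle by GC content of the longest transcript, for 10 bins of the tested rows (median, bars to the quartiles) and for the 6 members (red). The bin medians lie between -0.42 in the lowest bin and 0.31 in the highest, and Lor, at 68.3% GC and 1.13, lies above them.

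The promoters of Krt10 and Lor are shown because the own rows of these genes read differently for day 10 against vehicle. Lor was at 1.13 (SE 0.23) and Krt10 at -0.04 (SE 0.14) on the log2 scale. Gm11940 lies outside the stretch shown for Krt10. Both promoters are the 250 bases before the annotated start on the gene's strand, from RefSeq on GRCm38.p6. They lie at chr11:99389365-99389614 (minus strand) for Krt10 and chr3:92083143-92083392 (minus strand) for Lor. Capitals mark matches to TATAAA on the gene's strand, to TGANTCA on either strand, the site of the AP-1 factors that drive many epidermal genes, and to GCGTG on either strand, the core of the sites of the aryl hydrocarbon receptor, a sensor of aromatic compounds.
Krt10: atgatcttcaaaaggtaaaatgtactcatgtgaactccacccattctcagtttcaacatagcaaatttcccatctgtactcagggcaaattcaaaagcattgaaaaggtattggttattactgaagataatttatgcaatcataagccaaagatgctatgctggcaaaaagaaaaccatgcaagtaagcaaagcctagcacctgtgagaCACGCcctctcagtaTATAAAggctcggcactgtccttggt
Lor: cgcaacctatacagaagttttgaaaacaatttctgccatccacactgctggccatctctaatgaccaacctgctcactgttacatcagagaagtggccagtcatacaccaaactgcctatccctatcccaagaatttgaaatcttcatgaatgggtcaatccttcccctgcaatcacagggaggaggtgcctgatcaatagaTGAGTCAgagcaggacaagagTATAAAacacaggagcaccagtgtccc
TATAAA begins 26 bases before the start of Krt10 and 27 before that of Lor, and 7.59% of 32851 promoters hold it. TGANTCA was found in Lor, 48 bases before the start, and not in Krt10, Krt5 or Dsp, and 6.75% of promoters hold it. GCGTG was found in Krt10 and in Dsp, 41 and 58 bases before the start, and not in Krt5 or Lor, and 28.2% of promoters hold it. Matches to different motifs do not overlap. A match is a run of letters and not evidence that a factor binds.

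The other genes of the same layers were read by their own rows and by rows opposite them, from 4 lists of 78 genes, with the 6 members left out. Of 87 rows, 36 could be tested. For day 10 against vehicle 3 of 36 rose and 0 fell, with a median of 0.41 over the 36, where 3.93% of all rows were called higher at a median of -0.01. For day 5 against vehicle 0 of 36 passed edgeR's quasi-likelihood test, with 5 at an unadjusted p under 0.05, and DESeq2 and limma-voom each called 1. For day 10 against day 5, 6 rose and 1 fell, with a median of 0.35, where 4.66% of all rows were called higher and 5.49% lower at a median of 0.01.

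Among basal genes, 2 of 16 rows rose for day 10 against vehicle and 4 of 16 against day 5, and 0 fell, where 3.93% and 4.66% of all tested rows were called higher in those comparisons. Both rows opposite Dst, which encodes the linker of keratin filaments to the basement membrane, rose against vehicle. The own row of Dst did not, with 67.5 ± 15.2 CPM at day 10 and 69.6 ± 13.6 in vehicle (log2 -0.06, SE 0.18, edgeR adjusted p 0.884). Against day 5 that own row was at -0.18 (SE 0.18, adjusted p 0.591). A930005N03Rik averaged 271 ± 71.9 CPM at day 10 and 155 ± 13.0 in vehicle (log2 0.81, SE 0.16, edgeR adjusted p 0.00748), above the vehicle mean in 4 of 4 libraries. Gm26788 averaged 758 ± 147 CPM at day 10 and 513 ± 49.7 in vehicle (0.56, SE 0.14, adjusted p 0.0178). Against day 5, Itgb4, the integrin chain of hemidesmosomes, rose to 93.2 ± 24.9 CPM, against 51.6 ± 6.66 at day 5 (0.85, SE 0.18, edgeR adjusted p 0.00542). In vehicle Itgb4 had 63.5 ± 4.01 CPM, with every day 5 library below every vehicle library. Its day 10 difference from vehicle was 0.55 (SE 0.18, adjusted p 0.0611). Dlk2, a Notch ligand relative whose row also lies opposite Abcc10, rose to 19.6 ± 1.71 CPM, against 10.2 ± 2.24 at day 5 (0.93, SE 0.28, edgeR adjusted p 0.0335). A930005N03Rik and Gm26788 also rose against day 5, by 0.56 and 0.47.

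In the stress keratin list, 2 rows besides the members could be tested, and 1 fell for day 10 against day 5. Gm44383, opposite Krt6b and identical in sequence to Gm44342, had 16.5, 10.98, 3.14 and 0.571 CPM in day 10 replicates 1, 2, 3 and 5. Its day 5 levels were 22.5, 47.1, 7.01 and 49.9 CPM in replicates 5, 6, 7 and 8. The log2 difference was -1.99 (SE 0.62, edgeR adjusted p 0.0435), while DESeq2 and limma-voom did not call it. Gm44460, opposite Krt75, a keratin of the hair follicle's companion layer, had -1.16 (SE 0.54, adjusted p 0.180) in the same comparison.

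Of 12 suprabasal and cornified rows besides the members, 0 passed edgeR for day 10 against vehicle, with 1 at an unadjusted p under 0.05, and the median was 0.29. Krt80, a keratin of differentiating epithelium, was at 0.85 (SE 0.32, adjusted p 0.1002), and Klf4, a transcription factor of barrier formation, at 0.68 (SE 0.38, adjusted p 0.283). Against day 5, the own row of Lypd3, a surface protein of suprabasal cells, rose to 13.3 ± 4.59 CPM at day 10, against 5.06 ± 2.29 at day 5 (1.38, SE 0.43, edgeR adjusted p 0.0416). In vehicle that row had 8.475 ± 5.00 CPM. Against vehicle it was at 0.59 (SE 0.40, adjusted p 0.389) at day 10 and -0.79 (SE 0.43, adjusted p 0.374) at day 5. The row opposite Lypd3, Gm26550, was at -1.61 (SE 0.67, adjusted p 0.131) for day 10 against day 5, opposite in sign to the own row.

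In the desmosome list, 1 of 6 rows besides the members rose at day 10, in both comparisons. Evpl, the envoplakin gene, whose product is part of the cornified envelope, averaged 157 ± 49.2 CPM at day 10, 66.2 ± 5.00 at day 5 and 95.5 ± 10.8 in vehicle. The log2 difference was 0.71 (SE 0.18, edgeR adjusted p 0.0212) for day 10 against vehicle and 1.24 (SE 0.19, adjusted p 0.000752) against day 5. Gm16090, opposite Dsg2, the desmosomal cadherin desmoglein of simple and stratified epithelia, was at 0.57 (SE 0.15, adjusted p 0.0639) for day 5 against vehicle. In that comparison 4 of the 6 rows were negative. The own row of Evpl was at -0.53 (SE 0.19, edgeR adjusted p 0.150) and that of Ppl at -0.42 (SE 0.19, adjusted p 0.270). For both, every day 5 library was below every vehicle library, where 11.7% of all rows did not overlap in either direction.

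The calls of A930005N03Rik against vehicle, and of Itgb4 and Evpl against day 5, held without each of the 12 libraries. Against vehicle, Evpl lost its call without vehicle replicates 2, 5 or 6 or day 10 replicates 2 or 5 (0.57 to 0.73), and Gm26788 without vehicle replicates 2 or 6 or day 10 replicates 2 or 5 (0.45 to 0.57). Against day 5, Dlk2, Lypd3, Gm26788, A930005N03Rik and Gm44383 each lost theirs without day 10 replicate 2, 3 or 5. They also lost theirs without day 5 replicates 6, 7 or 8 (Dlk2), 5, 6 or 7 (Lypd3), 5, 7 or 8 (Gm26788), 5 or 7 (A930005N03Rik) and 5, 6 or 8 (Gm44383). Their values there were 0.80 to 0.96 for Dlk2, 1.14 to 1.51 for Lypd3, 0.36 to 0.51 for Gm26788, 0.43 to 0.55 for A930005N03Rik and -2.15 to -1.59 for Gm44383. Lypd3 and Gm44383 lost theirs also without vehicle replicate 2. With the share of CT010467.2 as covariate, none of the 10 list calls at day 10 remained. That fit called 0 of all rows against vehicle and 2 against day 5, so the loss is not particular to these rows. With day 10 replicate 1 as the sole day 10 library, Evpl was at -0.09 against vehicle and 0.44 against day 5. A930005N03Rik was at 0.15 and -0.11 there, and Gm26788 at 0.19 and 0.10. Against day 5, Itgb4 was at 0.22, Dlk2 at 0.81, Lypd3 at 1.16 and Gm44383 at -0.93. The GC content of Evpl, Itgb4, Dlk2 and Lypd3 was 58.3% to 61.5%, and that of Gm26788 and A930005N03Rik 43.6% and 45.5%. After the GC correction, calls were lost for Evpl against vehicle (0.40) and for Dlk2 (0.69) and Lypd3 (1.17) against day 5, and limma-voom did not call Lypd3 (1.39). In the fit to only the 8 libraries compared, Evpl against vehicle (0.70) did not pass, nor did Dlk2 (0.92) and A930005N03Rik (0.56) against day 5. Dlk2 against day 5 was also lost with no filter (0.93). With a block for the replicate number, Dlk2 (0.77) and Lypd3 (1.31) against day 5 were lost.

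For every marker list of other cell types, own rows and opposite rows were summed per library. Among all these sums, 3 did not overlap between day 10 and vehicle. They stand beside the day 10 values of Lor, Evpl and the rows opposite Dst. Of all single tested rows, 9.98% did not overlap between those groups. Own rows of 13 sustentacular and gland genes summed to 498 to 781 CPM at day 10, 614 to 1346 at day 5 and 858 to 1352 in vehicle. Every day 10 library was below every vehicle library. The 1 row opposite these genes, Galnt5, opposite Ermn, had 26.1 to 50.2 CPM at day 10 and 49.4 to 73.0 in vehicle, and overlapped. Own rows of 10 leukocyte genes summed to 232.5 to 292 CPM at day 10, 219.7 to 244 at day 5 and 195.5 to 231.9 in vehicle, with every day 10 library above every vehicle library. Csf1r, the receptor of a macrophage growth factor, had 330 to 602 counts per library and made up most of this leukocyte sum. The Csf1r row also lies opposite Hmgxb3, whose own row had 14 to 35 counts. With the strand setting not given, reads of these 2 genes cannot be told apart there. Cd68 had 18 to 55 counts and Cd79a 5 to 21, while Ptprc had 0 to 4, Itgam 0 to 1, and Ly6g, a neutrophil marker, 0 in all. The 2 rows opposite leukocyte genes summed to 16.95 to 37.7 CPM at day 10 and 18.1 to 31.0 in vehicle, and overlapped. The third sum is the single row Runx2os1, opposite the bone transcription factor gene Runx2. It had 142 to 176 CPM at day 10, 106 to 142 at day 5 and 102 to 129 in vehicle. Own rows of 8 bone and cartilage genes summed to 76.5 to 101.7 CPM at day 10 and 71.6 to 105.5 in vehicle, and overlapped. The part of these cell types in the member and list values was not tested.

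Ranked by Pearson r of log2 CPM over the 12 libraries, the 3 rows most like each Krt6a row lie opposite genes of stratified epithelium. For Gm49428 these were Gm44342 (0.973), Gm26550 opposite Lypd3 (0.949) and Gm44383 opposite Krt6b (0.929), followed by Ccna2 opposite Exosc9 (0.886) and Ints8 opposite Ccne2 (0.880). Gm44342 had the same first 3, with Gm49428 at 0.973 in place of itself, and then Ints8 (0.896) and Otud5 (0.892). For Gm44323 the first was Insig1 (0.936), a regulator of sterol synthesis, followed by Tmem140 opposite Cyren (0.827) and by Rabep2 opposite Atp2a1 (0.820), Gm4814 opposite Cmya5 (0.816) and Gm17224 opposite Casq1 (0.814), the last 3 of which face genes of skeletal muscle. Gm10129 was most like Gm16090, opposite Dsg2 (0.949), and then Tlcd1 opposite Rpl23a, 4933431K14Rik opposite Ibtk, Gm10734 opposite Pelo and 1110051M20Rik opposite Arfgap2 (0.943 to 0.944).

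Lor and Gm11940 were most like rows outside the epithelial lists. Lor came closest to Ercc2 (0.965), a helicase gene of DNA repair that lies opposite Klc3, then to Ppa2 (0.953), Gm44759 opposite Rnf40 (0.946), Gm25238 opposite Cacul1 and Gm16172 opposite Tmem63b (0.940 each). Gm11940 came closest to Rsbn1 (0.950), Gm15480 (0.921), Gm48095 opposite Zfp738 (0.898), Gm13857 opposite Akr1b7 (0.891) and Ttbk2 (0.889). Between the members, Gm11940 had r 0.817 with Gm49428 and -0.756 with Lor, and Lor had -0.510 with Gm49428. Points in all these correlations share their library and its composition, and the values describe these 12 libraries.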

How the data were processed

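Gene counts were measured in 12 libraries of mouse nasal tissue, 4 per group. The deposited unit is counts: per the submitters' processing notes, the authors used FastQC, Trim Galore, STAR with the mm10 genome, and HTSeq to make them. Not given in the sources used here are tool versions, annotation, counting mode and strand setting. The labels' protocols name a SMARTER mRNA-Seq kit for the libraries.

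The 6 rows and all gene lists were chosen with earlier results of these data known. GENCODE M21 held 55141 of the 55487 rows, and overlaps were found with bedtools 2.31.1 from Python 3.11.15. Opposite rows are those whose exons overlap exons of a gene on the other strand by 50 bases or more. In R 4.3.3, edgeR 4.0.16 was used for the filter (filterByExpr), the TMM scaling and a quasi-likelihood test in 1 model of all 12 libraries with group as its term. The 13181 tested rows held 98.3% of counts, the common biological coefficient of variation was 0.213, and a call is a Benjamini-Hochberg adjusted p under 0.05 over all tested rows. The SE of a log2 fold change is its size over the root of F. Log2 CPM used a prior count of 2. Floors of 3 counts cover counting error only. Over 18 pairs of replicates, the variance of the counts was 3.11 to 20.2 times that of counting error.

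The text names the 6 rows, the own rows of Krt5, Krt6a, Krt10, Dsp and Dst, and the 5 rows most like each member. It also names called rows of 4 epithelial lists and rows among the 4 with the smallest p in each list and comparison. Marker lists of other cell types were summed per library, own rows and opposite rows apart. Sums are given for muscle, hair keratin, simple epithelium and each list with a sum that did not overlap between day 10 and vehicle. Fibroblast and ciliated sums are given for day 5 and vehicle. Alternatives were the scaling, the filter (none, or 10 CPM in 4 libraries), DESeq2 1.42.0 and limma-voom (limma 3.58.1), a fit to only the 8 libraries compared, a block for the replicate number, GC correction per library (loess with span 0.5, on 99.8% of tested rows), the CT010467.2 share as a covariate, leaving out each library, and day 10 replicate 1 as the sole day 10 library. The fit was tested on simulated counts.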

Additional observations from a re-analysis of the deposited data

Results flagged for a closer look

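Gm44323, opposite Krt5, had 534.5 CPM in vehicle replicate 4, far from the other 3 vehicle libraries at 304 to 325 CPM. A check of single groups of 4 for a library this far off marks about 1 group in 20 by chance.

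Gm11940, opposite Krt10, differed between the days of KDP20 exposure, with a log2 difference of -3.67 for day 10 against day 5. Lor also differed between the days, by 0.79 on the log2 scale for day 10 against day 5. Both rows were chosen with these values known.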

How the results depend on the processing

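Depth limits Gm11940 most, with 0 to 53 counts per library. Other scalings moved the median of all rows by less than 0.03 on the log2 scale. No called member difference changed sign. Uncalled ones did for Gm49428, Gm44342 and Gm10129 at day 10 and for Lor at day 5, all against vehicle. Against vehicle at day 10, 933 rows were called (518 higher), against 423 in the 8 libraries alone, 410 with the GC correction (332 higher), 0 with the CT010467.2 covariate and 0 with day 10 replicate 1 as the sole day 10 library. Leaving out 1 library gave 95 to 2684: 95, 192 and 466 without day 10 replicates 5, 2 and 3, 2684 without day 10 replicate 1, and 337, 399 and 429 without vehicle replicates 2, 4 and 6. The 3 list rows called there became 6 with DESeq2 and 0 with the covariate or the sole library, and 1 to 8 without 1 library. Against vehicle at day 5, the 87 calls became 278 with no filter, 135 at 10 CPM, 514 with DESeq2, 284 with limma-voom, 656 in the 8 libraries, 370 with the covariate, 589 with the sole library and 5 to 569 without 1 library. The 0 list rows became 2 with no filter, in the 8 libraries, with the covariate or with the sole library, 1 at 10 CPM, with DESeq2, with limma-voom or with the GC correction, and 0 to 2 without 1 library. For day 10 against day 5, the 1337 calls became 2 with the covariate, 0 with the sole library and 623 to 2689 without 1 library, and the 7 list rows 0, 0 and 2 to 11. With the covariate and with the sole library, Evpl was at -0.076 and -0.0946 for day 10 against vehicle, and with the sole library A930005N03Rik was at -0.11 against day 5. The cause was not tested.

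Replicate numbers shared by groups did not pair the libraries: same-numbered libraries had correlated deviations of -0.09 to 0.12 over 5 pairs. With the number as a replicate block, 1701 rows (777 higher) and 7 list rows were called for day 10 against vehicle, 33 and 1 for day 5 against vehicle, and 958 and 6 for day 10 against day 5. Libraries whose number occurs in no other group do not bear on these calls. Gm11940 was not tested in the 8 libraries of day 10 and vehicle, where it failed the filter.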

Other observations

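Simple epithelial genes, which mark the unstratified layers of the nose, were also read by rows opposite them. The 4 such rows, opposite Krt7, Krt8, Grhl2 and Elf3, summed to 598 to 918 CPM at day 10, 878 to 1109 at day 5 and 676 to 812.5 in vehicle, with day 5 above all vehicle libraries. The own rows of the 15 genes summed to 141 to 187 CPM at day 10, 145 to 169.5 at day 5 and 147 to 188 in vehicle, with the groups overlapping. Of all single tested rows, 11.7% did not overlap between day 5 and vehicle, 5.86% with day 5 higher. Opposite rows as a class had a median log2 difference of 0.17 there. Other marker sums also separated between these groups. Rows opposite fibroblast genes summed to 303 to 454 CPM at day 5 and 174 to 272 in vehicle. Own rows of ciliated genes summed to 328 to 382 CPM at day 5 and 394 to 449 in vehicle. These sums were not tested.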
